A study of Mus musculus with 20 samples.

Results

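The effectors of mTOR complex 1 that carry its signal to the ribosome were examined as 8 genes, chosen by name: the S6 kinases Rps6kb1 and Rps6kb2, the 4E-binding proteins Eif4ebp1, Eif4ebp2 and Eif4ebp3, and Pdcd4, Eif4b and Larp1. All 8 were found among 21631 protein-coding genes on chromosomes 1 to 19 and X. The cells were sorted hematopoietic stem cells (HSC) of adult mice. All had received poly(I:C), an interferon inducer that switches on the Mx1-Cre transgene in blood cells and in other tissues that respond to interferon. Controls were Mx1-Cre-/-;mTORflox/flox (WT), so they carried floxed alleles without Cre and also received poly(I:C). Knockout mice were Mx1-Cre+/-;mTORflox/flox (KO), and mice of the remaining group were Mx1-Cre+/-;mTORflox/flox;c-Myc+/flox (KO MycHet). Of 20 samples, the 12 with a peak list were used. ChIP-seq for H3K27ac, H3K4me3 and MYC gave 1 library for WT and 1 for KO, and ATAC-seq, from 50000 cells a library, gave 2 for each of the 3 genotypes. The labels do not say whether mice were pooled or whether libraries of a genotype came from separate mice.

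As background, mTOR complex 1 phosphorylates the S6 kinases, which then act on ribosomal protein S6, the helicase cofactor eIF4B and the helicase inhibitor PDCD4. It also phosphorylates the 4E-BPs, which in their unphosphorylated form hold the cap-binding protein eIF4E away from the scaffold eIF4G and so restrain cap-dependent translation. LARP1 is a direct target as well and binds mRNAs that begin with a terminal oligopyrimidine tract, among them those of ribosomal proteins. These proteins are regulated mainly by phosphorylation, whereas the data here describe the chromatin of the genes that encode them.

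The lists held 10078 WT and 20036 KO peaks for H3K27ac, 15089 and 16019 for H3K4me3, and 8774 and 22086 for MYC. The ATAC-seq lists of WT 1 and KO 1 were short, with 17303 and 19174 peaks, and those of WT 2 and KO 2 long, with 66531 and 72149; KO MycHet 1 and 2 had 47214 and 53722. Read depth is unknown, since the lists give no counts. Scores are the authors' peak caller values on an unstated scale. Most are therefore given with their percentile within their own list (100 is the highest). A score given alone can be read only within its own list, and the lowest score of each list was 50 or 50.01. Mtor, the targeted gene, had a peak within 1 kb of its lower end, meaning the end with the smaller coordinate, in all 5 libraries labelled WT, 0 of 5 labelled KO and 0 of 2 labelled KO MycHet. Of 12 HSC marker genes, 12 had an ATAC-seq peak at an end in at least 1 library. WT 2 alone had such a peak at 66.1% of all genes, so the share of all genes with one in any library was no lower. In all 6, 5 of the 12 had such a peak, near the 40% of all genes that did. Of markers of other types, at least 1 library had one at 5 of 6 erythroid, 5 of 6 myeloid, 4 of 6 B cell, 2 of 6 T and NK, 4 of 5 megakaryocyte and 4 of 6 stromal and endothelial genes. In all 6 libraries it was present at 0 of 6 erythroid, 0 of 6 myeloid, 0 of 6 B cell, 0 of 6 T and NK, 1 of 5 megakaryocyte and 1 of 6 stromal and endothelial genes.

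Promoter sequence is shown for the members whose starts the peaks turn on. RefSeq entries of the GRCm38.p6 (mm10) build matched 5 of the 8 genes, and the 250 bases before the start are printed 5′ to 3′ on the gene's strand. Rps6kb1 and Eif4ebp2 are shown because they carried MYC peaks in both genotypes and Eif4b because it had none, while Pdcd4 and Larp1 belong to starts inside the annotated gene. Capitals mark matches to the MYC-type E-box variants CATGCG and CACGCG on either strand; the canonical E-box CACGTG was also searched and occurs in none of the 5.

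The Rps6kb1 promoter is chr11:86544808-86545057, minus strand.
Rps6kb1: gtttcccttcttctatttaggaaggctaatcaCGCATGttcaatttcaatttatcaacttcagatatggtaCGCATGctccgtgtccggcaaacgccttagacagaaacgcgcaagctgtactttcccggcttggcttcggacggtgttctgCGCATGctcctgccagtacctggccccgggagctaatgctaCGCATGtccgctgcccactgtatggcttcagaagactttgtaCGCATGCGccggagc
The Eif4ebp2 promoter is chr10:61452670-61452919, minus strand.
Eif4ebp2: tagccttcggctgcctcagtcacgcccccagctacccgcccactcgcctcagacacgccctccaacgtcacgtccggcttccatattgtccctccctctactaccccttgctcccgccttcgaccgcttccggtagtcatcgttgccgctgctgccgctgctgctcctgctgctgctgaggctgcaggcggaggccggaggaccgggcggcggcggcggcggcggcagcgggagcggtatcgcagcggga
The Eif4b promoter is chr15:102073523-102073772, plus strand.
Eif4b: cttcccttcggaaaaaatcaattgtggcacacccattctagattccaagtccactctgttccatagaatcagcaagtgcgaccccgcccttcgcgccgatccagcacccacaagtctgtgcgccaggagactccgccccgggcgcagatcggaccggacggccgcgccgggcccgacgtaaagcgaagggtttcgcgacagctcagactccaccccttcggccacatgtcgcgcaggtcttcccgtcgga
The promoter of the internal Pdcd4 start is chr19:53903101-53903350, plus strand.
Pdcd4: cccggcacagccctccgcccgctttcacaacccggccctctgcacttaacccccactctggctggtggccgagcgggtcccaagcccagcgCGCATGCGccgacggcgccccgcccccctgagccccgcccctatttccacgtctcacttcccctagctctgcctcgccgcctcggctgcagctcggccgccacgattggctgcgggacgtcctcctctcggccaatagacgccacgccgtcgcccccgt
The Larp1 promoter is chr11:58008814-58009063, plus strand.
Larp1: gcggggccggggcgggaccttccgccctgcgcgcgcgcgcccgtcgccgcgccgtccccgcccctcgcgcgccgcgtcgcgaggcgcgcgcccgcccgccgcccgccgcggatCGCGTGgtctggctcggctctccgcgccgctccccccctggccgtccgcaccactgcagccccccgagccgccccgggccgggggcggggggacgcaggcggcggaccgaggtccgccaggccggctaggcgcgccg

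Rps6kb1 held 6 matches to CATGCG, counted on both strands, of which the 2 nearest the start overlap each other. They begin at -218, -179, -98, -57, -15 and -13 bp from the start. Among 21045 promoters of the same length, 6.39% held CATGCG at all, and 5, Rps6kb1 included, held it 6 times or more; this count was chosen after the matches were seen. The internal Pdcd4 promoter held 2 overlapping matches at -159 and -157 bp, and Larp1 held 1 match to CACGCG (in 10.1% of promoters) at -137 bp. Eif4ebp2 and Eif4b held none of the E-box forms in these 250 bases. CACGTG occurs in 6.7% of promoters. The 5 differed in base composition, from 52.8% G and C at Rps6kb1 to 70% at Eif4ebp2 and 86.8% at Larp1, the last above 99.9% of promoters. A match to so short a motif is a description of the letters only.

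H3K4me3, a mark of active promoters, was called at the same members in WT and KO, while H3K27ac, a mark of active promoters and enhancers, was called at more of them in KO. H3K4me3 lay within 1 kb of an end of 5 of 8 genes in WT and the same 5 in KO (Rps6kb1, Rps6kb2, Eif4ebp1, Eif4ebp2 and Eif4b). Of all genes, 52.9% had it in WT, 54.3% in KO and 51.4% in both. An H3K27ac end peak was found for 3 genes in WT (14.6% of all genes) and 5 in KO (39.6%). Eif4ebp1 and Eif4b were KO only, 2 of 8 against 25.8% of all genes, so the share of KO-only members was near the background, and 0 were WT only (0.767%). Among the 11109 genes with H3K4me3 in both genotypes, 46.7% were KO only for H3K27ac, and 2 of the 5 members in that class were. With 1 library per genotype there is no spread to set these counts against and no test was made. MYC had an end peak at 3 genes in WT (10.3% of all genes) and 2 in KO (22.3%). Rps6kb1 and Eif4ebp2 had it in both (7.93%), Eif4ebp1 in WT only (2.35%) and 0 genes in KO only (14.4%). In bulk chromatin, a mark in fewer cells and a weaker mark in each cell cannot be told apart.

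The H3K27ac count rests on how a peak is assigned. It was 0 KO-only genes when the centre of the peak had to lie inside the window and 5 when only peaks above each list's median score were kept, since none of the 3 WT member peaks at an end scored above it. With the same score limit MYC was at 1 gene in WT and KO only at 1. With the peak centre in the window, H3K4me3 was at 3 genes in each genotype. Pdcd4 and Larp1 were not counted above because their marked promoters lie inside the annotated gene, 11120 and 35646 bp from its 5′ end. With RefSeq starts added to the ends, a choice made after the peaks were seen, H3K4me3 was present at 7 of 8 genes in both genotypes (54.1% of all genes) and H3K27ac at 4 in WT (15.7%) and 7 in KO (41.8%), with 3 KO only (26.9% of all genes): Eif4ebp1, Pdcd4 and Eif4b.

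**Figure D1:**
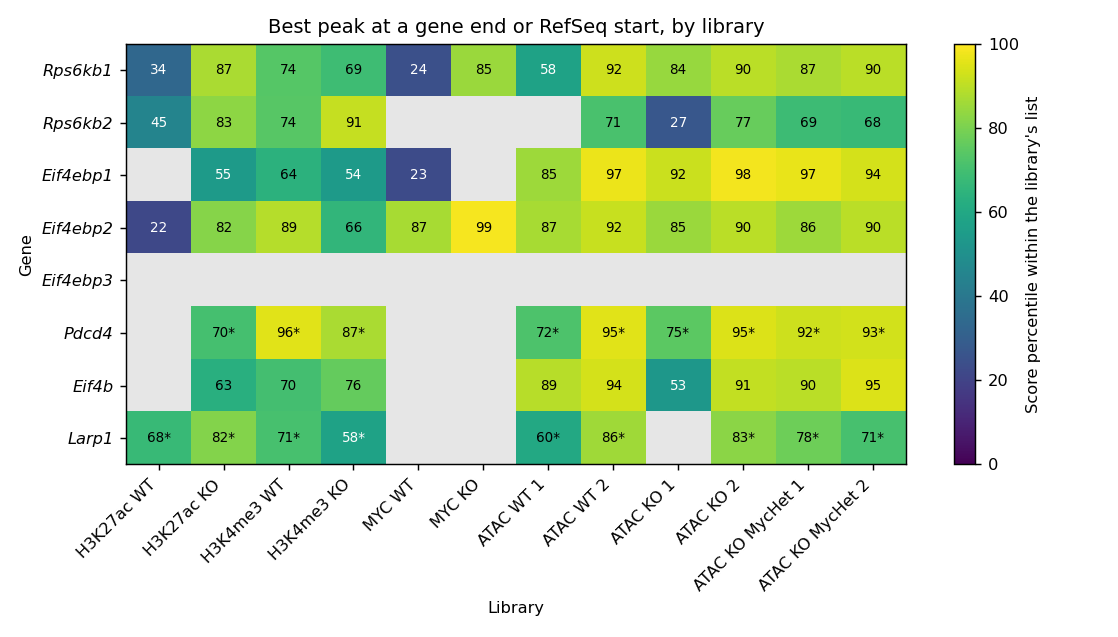
Heat map of the best peak within 1 kb of a gene end or RefSeq start for the 8 genes (rows) in the 12 libraries (columns). Colour and number give the percentile of the peak's score within that library's own list, an asterisk marks a peak at a start inside the gene, and grey means no peak; for Rps6kb2 the H3K4me3 cells show the lower-end peak shared with Ptprcap. Eif4ebp3 is grey throughout, MYC is filled at Rps6kb1 and Eif4ebp2 in both genotypes and at Eif4ebp1 in WT, and the H3K27ac column is fuller in KO (7 genes) than in WT (4).

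Rps6kb1 (gene ID 72508, chromosome 11, 86498869 to 86544885, minus strand) encodes S6 kinase 1, the main S6 kinase of most tissues. Its upper end, which holds the RefSeq start at 86544807, had a peak in all 12 libraries, as did 4.23% of all genes. The H3K27ac peak scored 59.7 (percentile 33.5) in WT and 287 (87.4) in KO, and its width was 480 bp in WT and 2470 bp in KO. The H3K4me3 peak scored 447 (73.6) in WT and 419 (68.9) in KO, so this mark ranked in the upper part of both lists. MYC gave 56.2 (24.5) in WT and 131 (85) in KO, and both peaks covered the start and all 250 printed bases, running from -369 to 51 bp and from -645 to 187 bp. ATAC-seq scores were 109 (57.7) and 821 (92.4) in WT 1 and WT 2, 178 (84.4) and 624 (89.8) in KO 1 and KO 2, and 474 (87.3) and 569 (89.8) in the KO MycHet libraries. WT 1 was the lowest of the 6 by percentile and WT 2 the highest, so the WT libraries spanned the others. The neighbouring gene Tubd1, a tubulin gene, begins 106 bp beyond this end, so all 12 peaks are shared with it and cannot be assigned to 1 of the 2 promoters.

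Rps6kb2 (gene ID 58988, chromosome 19, 4156792 to 4163383) encodes S6 kinase 2, a paralogue with overlapping substrates. Both genotypes had H3K4me3 and H3K27ac at the upper end, and neither had MYC within 1 kb of the gene. H3K27ac there scored 63.9 (percentile 45.1) in WT and 248 (83.1) in KO, and H3K4me3 389 (64.7) and 487 (78.1). ATAC-seq peaks at the upper end scored 285 (71.2) in WT 2, 65.2 (27) in KO 1, 325 (76.8) in KO 2, and 224 (68.7) and 217 (67.5) in KO MycHet 1 and 2, with no peak in WT 1. Thus the call differed in the short-list pair (KO 1 and not WT 1, as for 4.63% of all genes) and not in the long-list pair. The lower end of Carns1, whose strand was not looked up, lies 941 bp beyond the upper end, within reach of the same peaks. At the lower end the peaks lie over Ptprcap, which ends 82 bp away, and were H3K4me3 in both genotypes (451 in WT, 610 in KO), H3K27ac in KO (190) and ATAC-seq in KO MycHet 1 (157).

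Eif4ebp1 (gene ID 13685, chromosome 8, 27260327 to 27275656) encodes 4E-BP1. Its lower end ranked at percentile 85.4 or above in every ATAC-seq list, and it had H3K27ac in KO only. ATAC-seq scores were 207 (percentile 85.4) and 1141 (97) in WT 1 and WT 2, 233 (91.9) and 1200 (98.2) in KO 1 and KO 2, and 819 (96.7) and 710 (93.7) in KO MycHet 1 and 2. KO was above WT within the short pair and within the long pair, but the ranges of the genotypes overlapped. H3K4me3 scored 386 (64.1) in WT and 314 (54.4) in KO. The H3K27ac peak in KO scored 116 (54.6), ran from 71 bp inside the lower end over 2735 bp, and overlapped no WT peak. The single MYC peak lay at the opposite, upper end in WT (55.8, percentile 22.9), 236 bp wide and just beyond the gene. It was WT only, as at 2.35% of all genes, and its score was close to the lowest in the list (50.01).

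Eif4ebp2 (gene ID 13688, chromosome 10, 61428491 to 61452790, minus strand) encodes 4E-BP2 and carried the highest-ranked MYC peaks of the 8 genes in both genotypes. The MYC peak scored 125 (percentile 87) in WT, rank 1140 of 8774, and 388 (98.8) in KO, rank 266 of 22086. Ranks in lists of different length do not measure a change. Both peaks lay upstream of the start at 61452669, from -764 to -197 bp in WT and from -790 to -50 bp in KO, so 54 and 201 of the 250 printed bases fall inside them. MYC was called at an end in both genotypes at 7.93% of all genes and at 14.5% of those with H3K4me3 in both. H3K4me3 scored 562 (88.7) in WT and 399 (66) in KO.

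H3K27ac around the Eif4ebp2 start differed in layout. WT had 1 peak of 255 bp upstream (55.7, percentile 21.5). KO had a weak upstream peak (52.1, percentile 4.5) and a stronger one from 5 to 1590 bp downstream of the start (239, percentile 82). The start itself lay in the gap between the KO peaks, and the upstream KO peak, from -803 to -52 bp, spans nearly the same bases as the KO MYC peak. ATAC-seq scores at the start were 216 (86.8) and 781 (91.6) in WT 1 and WT 2, 180 (84.9) and 618 (89.6) in KO 1 and KO 2, and 437 (85.5) and 559 (89.5) in the KO MycHet libraries. All 6 lists placed it between percentile 84.9 and 91.6, and the genotypes overlapped.

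Eif4ebp3 (gene ID 108112, chromosome 18, 36664060 to 36666324) encodes 4E-BP3 and had no peak at either end or inside the gene in any of the 12 libraries. No end peak in any library was found for 29.5% of all genes. The nearest peaks lay beyond the upper end at the neighbours Sra1 and Apbb3, 2426 bp away for H3K4me3 in WT (568) and 2350 bp in KO (649). In KO, H3K27ac was 2845 bp away (372) and MYC 3591 bp (56.7), whereas in WT the nearest peaks of these targets were 12657 and 12780 bp away. The paralogues therefore differed in calls: Eif4ebp2 had a peak in 12 libraries, Eif4ebp1 in 10 and Eif4ebp3 in 0.

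**Figure D2:**
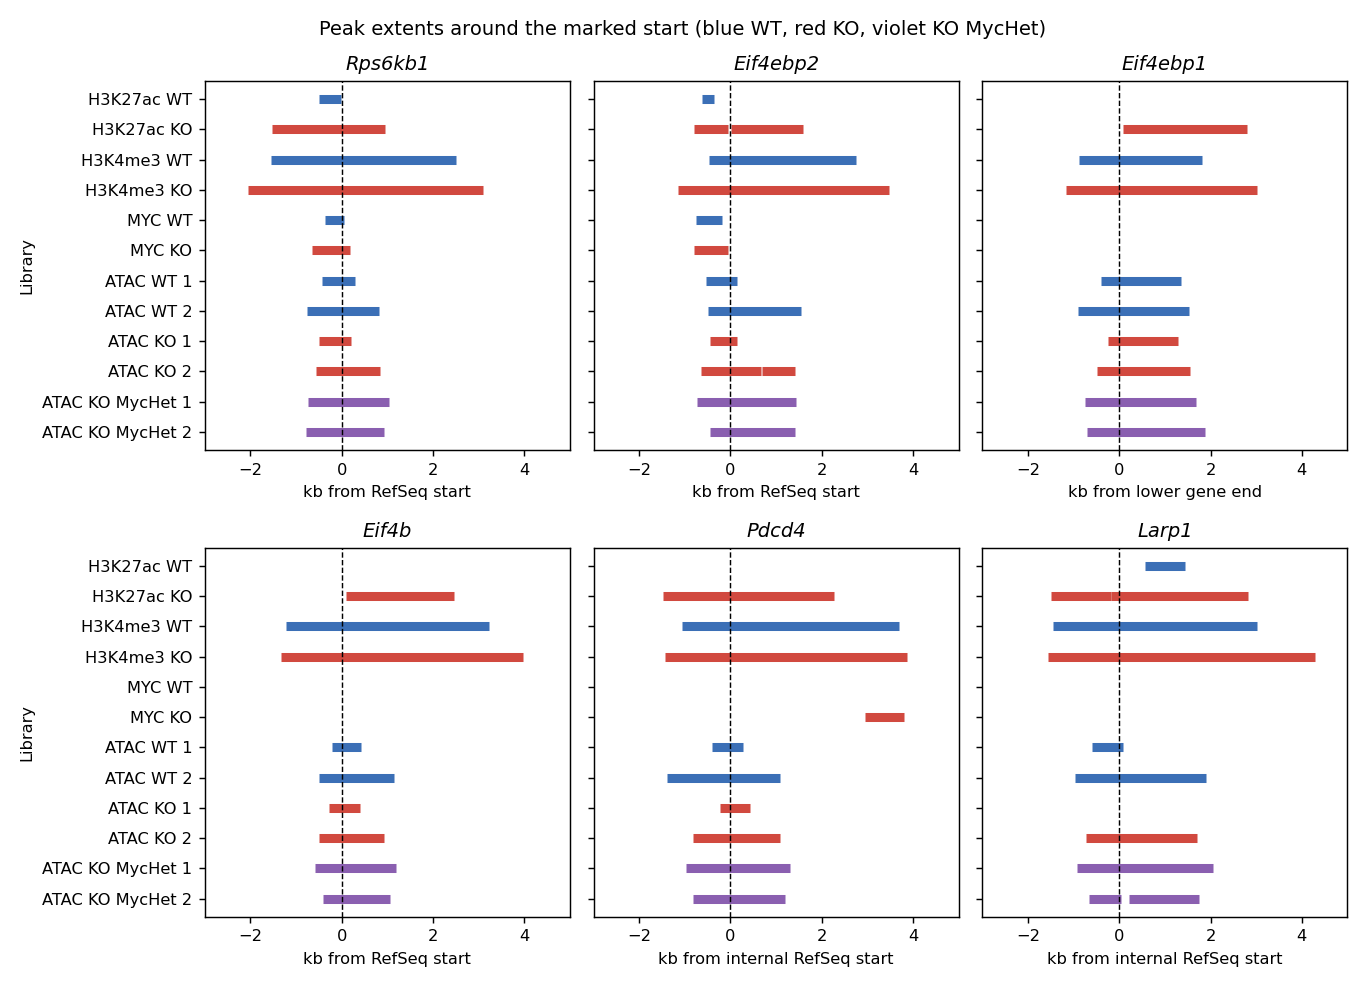
Extents of the peaks of each library (rows; blue WT, red KO, violet KO MycHet) around the start of 6 genes, in kb from the RefSeq start with the transcribed side positive, or from the lower end for Eif4ebp1, whose strand was not in the sequence table. MYC bars sit at the start of Rps6kb1, upstream of it at Eif4ebp2 and 2950 to 3801 bp downstream at Pdcd4 in KO, and H3K27ac bars are longer in KO than in WT wherever both exist.

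Eif4b (gene ID 75705, chromosome 15, 102073773 to 102097173, plus strand) encodes the cofactor that stimulates the RNA helicase eIF4A and is a substrate of the S6 and RSK kinases. Its lower end is the RefSeq start and was open in all 6 ATAC-seq libraries, marked by H3K4me3 in both genotypes, and marked by H3K27ac in KO only. H3K4me3 scored 424 (percentile 70.3) in WT and 474 (76.3) in KO, and the KO H3K27ac peak 142 (63.2), from 86 to 2459 bp downstream of the start. ATAC-seq gave 233 (89.1) and 881 (93.5) in WT 1 and WT 2, 91.4 (53) and 670 (91) in KO 1 and KO 2, and 533 (89.6) and 760 (94.7) in the KO MycHet libraries. KO 1 was the low value, and KO 2 lay within the range of the other lists. No MYC peak lay within 1 kb of the gene. This set of calls over the 12 libraries is common: 9.88% of the other genes had the same.

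Inside Eif4b, a second region that begins 16637 bp into the gene (102090410 to 102091794) had H3K27ac in KO (69.8, percentile 28.1) and ATAC-seq peaks in the 4 longer lists, scoring 160 in WT 2, 296 in KO 2, and 139 and 229 in the KO MycHet libraries. Neither short list, WT 1 or KO 1, had a peak there. Of 85640 merged ATAC-seq regions, 19.8% had this set of 4 libraries. A smaller region, 102080407 to 102080823, was in ATAC-seq WT 2 alone (69).

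Pdcd4 (gene ID 18569, chromosome 19, 53892231 to 53937592, plus strand) encodes a tumour suppressor that blocks eIF4A until S6 kinase marks it for degradation. RefSeq gives it 2 starts. The outer one, at 53892231, had a peak in 1 of 12 libraries (ATAC-seq WT 2, 76.4, percentile 22.4), while the inner one, at 53903351, had a peak over it in 9. At the inner start H3K4me3 scored 660 (95.6) in WT and 566 (87.4) in KO, the highest H3K4me3 percentile of the members in WT. H3K27ac was found there in KO (173, percentile 70.5), from -1486 to 2266 bp, and not in WT. ATAC-seq scored 145 (71.9) and 1006 (95.4) in WT 1 and WT 2, 138 (74.7) and 854 (94.7) in KO 1 and KO 2, and 612 (92.3) and 687 (93.1) in KO MycHet 1 and 2, so the WT and KO values of each pair lay side by side. The predicted gene Gm30990 overlaps this stretch of Pdcd4.

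MYC lay inside Pdcd4 in KO only. The stronger peak scored 222 (percentile 95.8, rank 934 of 22086) and ran from 2950 to 3801 bp downstream of the inner start, within the H3K4me3 peak of KO (to 3865 bp) and beyond the edge of every ATAC-seq peak at that start. A weaker KO peak (52.4, percentile 8.13) lay between the starts. In WT the nearest MYC peak (108, percentile 81.2) and H3K27ac peak (94.6, percentile 80.2) lay 1097 and 1159 bp beyond the upper end, just outside the window. Counting peaks anywhere from 1 kb below to 1 kb above the gene, 1 of 8 members (Pdcd4) was KO only for MYC and 1 (Eif4ebp1) WT only, where 23.6% and 3.92% of all genes were. Further into Pdcd4, a region at 53925273 to 53925984 was open in WT 2 (166), KO 2 (73.5) and KO MycHet 2 (58.7), a set of libraries held by 5.6% of the merged ATAC-seq regions.

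Larp1 (gene ID 73158, chromosome 11, 57973418 to 58062034, plus strand), which encodes the repressor of oligopyrimidine-tract mRNAs, had no peak within 1 kb of either annotated end, and its RefSeq start at 58009064 was marked instead. H3K4me3 there scored 428 (percentile 70.8) in WT and 339 (57.7) in KO. H3K27ac had 1 WT peak downstream, from 572 to 1445 bp (77.2, percentile 67.5). KO had a pair of peaks, from -1502 to -187 bp (121, percentile 56.5) and from -175 to 2825 bp (234, percentile 81.5). The start was open in 5 of 6 ATAC-seq libraries. Scores were 115 (60.3) and 558 (85.8) in WT 1 and WT 2 and 428 (82.8) in KO 2, with no peak in KO 1. KO MycHet 1 gave 315 (77.9), and KO MycHet 2 gave 120 (47.4) over the start and 244 (70.8) just downstream. Thus the short-list pair differed at this start (WT 1 and not KO 1, as at 4.87% of all genes when starts are included) and the long-list pair did not. No MYC peak lay in or within 1 kb of Larp1.

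Elsewhere in its 88617 bp, Larp1 had the most internal regions of the set, 10 in all including the start, against 3 in Pdcd4, 2 in Eif4b and 0 in the other 5 genes. A region at 58042869 to 58043533 was open in the 4 longer lists, with scores of 68.5 in WT 2, 63.9 in KO 2, and 56 and 60.5 in the KO MycHet libraries. A pair of regions, at 58024553 to 58025090 and 58057252 to 58058147, were open in KO 2 and both KO MycHet libraries and in neither WT library. Their scores were 118, 88.7 and 128 at the first and 68.7, 88.9 and 80.9 at the second, for KO 2 and KO MycHet 1 and 2. This set of libraries was found at 3.23% of the merged ATAC-seq regions, and KO 1 had no peak at either. A region at 57983793 to 57984597 was open in WT 2 (119) and KO MycHet 1 (94.1), a set held by 1.01%. A further 5 regions each had a single library, 3 of them ATAC-seq WT 2, 1 ATAC-seq KO 2 and 1 H3K27ac WT.

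The members' H3K4me3 peaks were mostly wider in KO. At 6 genes the KO peak exceeded the WT peak by 530 to 1506 bp: 4039 and 5150 bp at Rps6kb1, 2680 and 4186 bp at Eif4ebp1, 3234 and 4612 bp at Eif4ebp2, 4764 and 5294 bp at Pdcd4, 4441 and 5307 bp at Eif4b, and 4458 and 5865 bp at Larp1. Rps6kb2 was the exception, with 2302 and 2320 bp at its upper end and 2282 and 2249 bp at its lower end, the only member pair that was narrower in KO. Over all 13792 pairs of H3K4me3 peaks that overlap 1 to 1, the KO peak was the wider in 90.3%, with a median ratio of 1.23. The ratios at the members ran from 0.986 at the lower end of Rps6kb2 to 1.56 at Eif4ebp1, on either side of that median. Score percentiles did not follow width. The percentile was lower in KO than in WT at Rps6kb1, Eif4ebp1, Eif4ebp2, Pdcd4 and Larp1, the 6 genes above other than Eif4b. It was higher in KO at Eif4b and at both ends of Rps6kb2, where the upper-end KO peak was wider by only 18 bp.

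H3K27ac widths differed more. Where both genotypes had overlapping peaks, widths were 480 and 2470 bp at Rps6kb1, 453 and 2590 bp at Rps6kb2, 255 and 752 bp at Eif4ebp2, and 874 and 3001 bp at Larp1, for WT and KO. The ratios were 5.15, 5.72, 2.95 and 3.43, beside a median of 3.62 over 4507 pairs, of which 98.5% were wider in KO. The MYC peaks had ratios of 1.98 at Rps6kb1 and 1.3 at Eif4ebp2 (median 1.44 over 3743 pairs, 81.8% wider in KO). KO peaks were thus the wider in most pairs of all 3 targets, beside the longer KO lists, and the part of depth or peak calling in this was not tested.

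**Figure D3:**
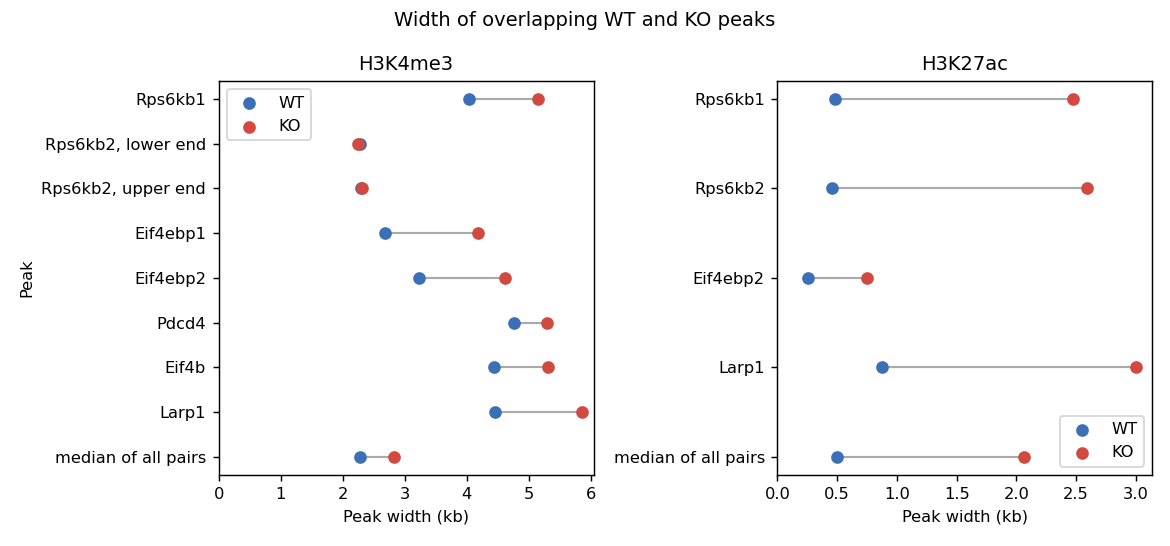
Width in kb of the WT (blue) and KO (red) peak at each gene where the pair overlaps, for H3K4me3 (left) and H3K27ac (right), with the median over all peaks that pair 1 to 1 in the bottom row. KO points lie to the right of WT points at every H3K27ac pair and at 6 of the 7 genes for H3K4me3 by at least 530 bp, while the points of Rps6kb2 nearly coincide.

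In ATAC-seq, presence differed little by genotype. An end peak in both libraries was found for 4 members in WT, 5 in KO and 5 in KO MycHet, beside 44.6%, 44.6% and 59.9% of all genes, and the fifth member in KO and KO MycHet was Rps6kb2. Without the short WT 1 list the WT number was 6, adding Rps6kb2 and Pdcd4, where WT 2 alone had an end peak at 66.1% of all genes. In all 6 libraries an end peak was present at Rps6kb1, Eif4ebp1, Eif4ebp2 and Eif4b (40% of all genes). In the KO MycHet lists, from mice with 1 floxed c-Myc allele, the peaks at these 4 genes held percentiles from 85.5 to 96.7. With 2 libraries a genotype, no exact permutation test can reach the usual threshold, and none was run.

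The genes around the members in the pathway were taken as 5 lists of 50 matched genes, with 1 listed symbol of the PDCD4 ubiquitin ligase unmatched. Among them 18 were KO only for H3K27ac (36% against 25.8% of all genes) and 0 WT only. For MYC 12 were KO only (24% against 14.4%) and 2 WT only (2.35% of all genes). H3K4me3 was at an end in both genotypes at 40 of the 50, against 51.4% of all genes. Among all genes with H3K4me3 in both, 46.7% were KO only for H3K27ac and 24.8% for MYC. The shares of 36% and 24% are of all 50 genes, with or without H3K4me3. The bases differ, so these shares cannot be ranked against 46.7% and 24.8%. With equal numbers of peaks the MYC calls came to 9 genes in WT and 9 in KO. Of these 5 were KO only (5.67% of all genes) and 5 WT only (4.59%), so KO-only genes did not outnumber WT-only genes there. For H3K4me3 3 were KO only (2.94% of all genes). Of 15 genes of eIF4F and the partners of 4E-BP, H3K27ac was present at 5 in WT and 13 in KO, beside 14.6% and 39.6% of all genes. MYC was at 2 in WT and 9 in KO, beside 10.3% and 22.3%. H3K4me3 was at 14 of the 15 in each genotype. H3K27ac was KO only (score, then percentile) at Eif4e (170, 69.9), Eif4g1 (207, 77.3), Eif4g2 (183, 72.8) and the eIF4A cofactor gene Eif4h (264, 84.8). The same held for the eIF4E kinase gene Mknk1 (56.3, 11.9), Klhl25 (86.4, 40.5), Ppm1g (448, 96.7) and Cul3 (100.5, 48.1). KO-only MYC genes of this list were the cap-binding genes Eif4e (64.5, 37.2) and Eif4e2 (69.9, 45.7) and the scaffold genes Eif4g1 (67.8, 42.6) and Eif4g2 (89.8, 65.9). The others were Klhl25 (85.4, 62.5) and Cul3 (101, 73), which encode parts of a ubiquitin ligase for 4E-BP1, and the phosphatase gene Ppm1g (123, 82.4). With equal numbers of peaks MYC was at 2 genes of this list in WT and 6 in KO. Of these 4 were KO only, where 5.67% of all genes were. H3K27ac was then KO only at 5 genes of the list, where 18.4% of all genes were.

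Of 11 substrates and partners of S6 kinase, MYC was at 4 in WT (10.3% of all genes) and 2 in KO (22.3%). With equal numbers of peaks it was at 4 and 1, with 3 WT only, where 4.59% of all genes were. Ncbp1, a nuclear cap-binding subunit (52, percentile 9.91), and Pdpk1, the kinase that phosphorylates the activation loop of S6 kinase (131, percentile 88.4), were WT only in the full lists. In this list H3K27ac was at 4 genes in WT and 8 in KO (14.6% and 39.6% of all genes), with 4 KO only (25.8%). These were Ncbp1 (311, percentile 89.6), Bad (417, 95.6), Rictor (140, 62.7) and Cad (73.2, 31.3). The insulin receptor substrate gene Irs1 had H3K4me3 in KO only (83.5, percentile 14.6), as did 2.94% of all genes. Among 14 related AGC kinases, H3K27ac was found at 1 in WT and 4 in KO, beside 14.6% and 39.6% of all genes. It was KO only at 3, Akt1 (170, percentile 69.8) and Akt2 (486, 97.6) among them. That is not above the 25.8% of all genes. MYC was at 2 in WT and 3 in KO, with 1 KO only (14.4% of all genes), Akt1 (56.2, percentile 19.4). With equal numbers of peaks this turned to 2 in WT and 0 in KO, with 2 WT only (4.59% of all genes). Sgk1 had H3K4me3 in KO only (57.5, percentile 4.24).

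The PDCD4 ubiquitin ligase genes had H3K27ac at 1 of 4 in WT and 3 in KO, with Fbxw11 (121, percentile 56.3) and Cul1 (300, 88.8) KO only. MYC was at 0 and 2, with Fbxw11 (57.7, 23.1) and Rbx1 (78, 55.5) KO only. La-related genes had H3K27ac at 2 of 6 and 3, with Ssb (244, 82.6) KO only. MYC was at 1 and 3 of them, with Larp1b (114, 79.2) and Larp4b (66.6, 40.6) KO only. Of all genes, H3K27ac was at 14.6% in WT and 39.6% in KO, with 25.8% KO only. For MYC these shares were 10.3%, 22.3% and 14.4%. No test was made on lists this short. Larp6 had H3K4me3 in KO only (94.7, percentile 18.3), as did 2.94% of all genes. With equal numbers of peaks the KO-only MYC genes numbered 0 for the PDCD4 ligase and 1 for La-related genes (5.67% of all genes). Peaks at Ncbp1, Cad, Bad, Pdpk1 and Ppm1g (MYC) are shared with a neighbouring gene, and the KO H3K27ac peaks at Eif4e and Cul1 overlap a WT peak outside the window.

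**Figure D4:**
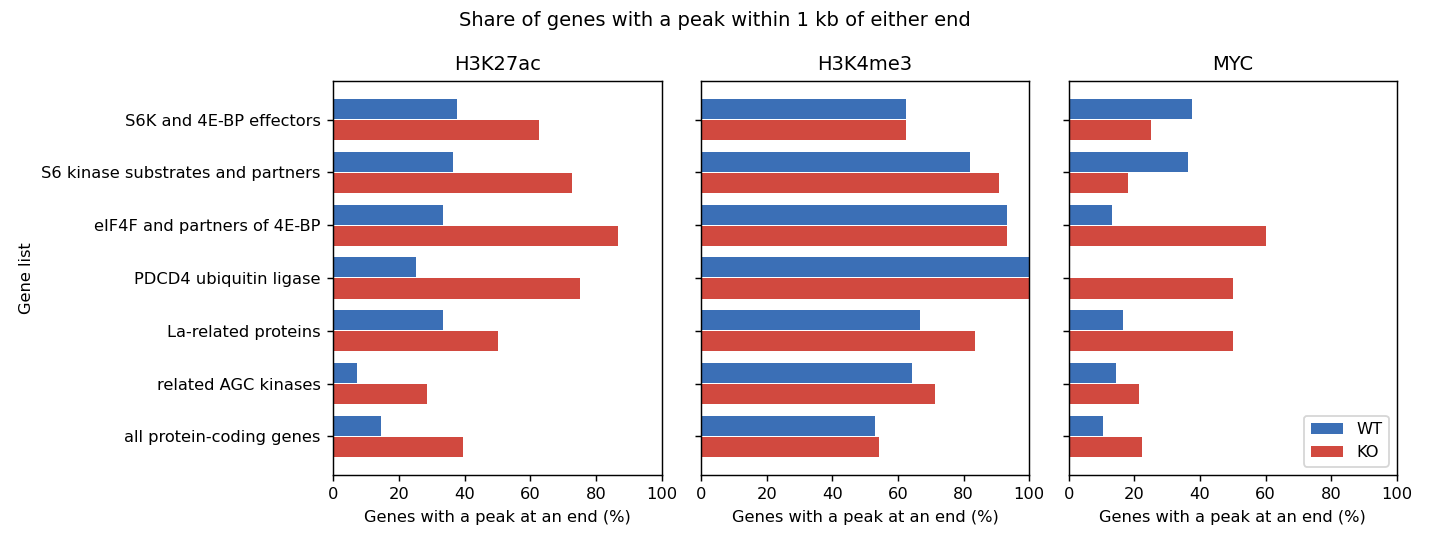
Percentage of genes with a peak within 1 kb of either end in WT (blue) and KO (red) for H3K27ac, H3K4me3 and MYC, for the 8 effectors, the 5 lists of other pathway genes and all protein-coding genes. For MYC the effectors have 3 genes in WT and 2 in KO, and eIF4F and its partners 2 and 9 of 15. For H3K27ac the KO bar is the longer in every list.

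Genes with the same presence or absence in all 12 libraries as a member were ranked by the mean absolute difference in score percentile over the libraries with a peak. Rps6kb1 and Eif4ebp2 shared their pattern with 915 genes, and the nearest were Cdk5 and Slc4a2 for Rps6kb1 (both 8.65 percentile points) and Psme2 and Rnf31 for Eif4ebp2 (both 5.6). Only genes that share a peak with the member were left out, so genes with equal values may share peaks with each other. The 146 genes with the Eif4ebp1 pattern were led by Elovl5 (4.45) and Zhx3 (4.98), and the 35 with that of Rps6kb2 included Cops9 (7.58). Eif4b shared its pattern with 2138 genes, with Nasp (4.36) and Rpe (4.38) nearest. Pdcd4 had an end peak in 1 library and Larp1 and Eif4ebp3 in 0, which leaves too little to rank.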

How the data were processed

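Peak lists of 12 libraries were used, each with a list of its own; nothing shows that libraries were pooled before calling. Each peak had a position, a name of the form the MACS peak caller writes and a score, which is the value the authors deposited; its scale is not stated and it was only ranked within a list. Per the submitters' processing notes, the build was mm10 and a tool named is CASAVA. Of the aligner, caller version, settings and input control, nothing was found: not given in the sources used here. RNA-seq from 8 samples was not analysed here.

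Only chromosomes 1 to 19 and X were used. A gene had an end peak where a peak shared at least 1 bp with the 1 kb on either side of an annotated end in RefSeq's GRCm38.p6 table. KO only means a KO and no WT peak at either end. RefSeq starts came from a promoter table of the same build, which covered 5 members. Peaks inside a gene and clear of the end windows were merged over libraries where they shared 1 bp. Calls were made for all 21631 genes in Python 3.11.15 with pandas 2.3.3, differed from bedtools 2.31.1 in 0 cases, and were tested on simulated peaks.

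All 8 members are named, and other genes of 5 lists only where KO only or WT only for a ChIP target. Genes most like a member are the 2 nearest by the measure given there. The members and lists were chosen with earlier results of these data known. Alternatives covered the window (500 bp and 2.5 kb), the number and score of peaks, the peak centre and single ATAC-seq libraries. Adding RefSeq starts, and equal numbers of peaks for the 5 other lists, were chosen after seeing the data. Some genes that these rules would name are not reported here.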

Additional observations from a re-analysis of the deposited data

How the results depend on the processing

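No paired analysis was possible because no result comes from a test. The ATAC-seq libraries of WT and KO were set side by side by the length of their lists, and the labels do not say that they are pairs. Of 78 recomputed counts over the 8 genes, 70 stayed within 1.5 times the reported count. With only peaks above each list's median score, the genes with an H3K27ac end peak in WT numbered 0 and those KO only 5, and MYC was at 1 gene in WT, with 1 KO only (Rps6kb1). With the peak centre inside the window, H3K27ac was at 3 genes in KO with 0 KO only, and H3K4me3 at 3 in WT and 3 in KO; by construction this drops wide peaks, such as the KO H3K27ac peak of Eif4b, whose centre lies 1272 bp from the start. Leaving out 1 ATAC-seq library per genotype gave 4 to 6 genes in WT and 5 in KO and in KO MycHet. Pdcd4 had an end peak in 5 libraries when the window was 2.5 kb, 0 with equal numbers of peaks and 0 above the median score, and Eif4ebp3 in 2 at 2.5 kb; the peaks then reached lie nearer to other genes at Eif4ebp3. With RefSeq starts added, Pdcd4 and Larp1 each had 9. Read depth is unknown, so a missing peak can mean a shallow library.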
